A study of Rattus norvegicus with 8 samples.

Results

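The urea cycle and the breakdown of amino acids were followed in rat liver through 39 named genes of 9 routes. They were chosen by name: a probe set counted for a member where the platform annotation gives that symbol alone. By this rule 37 members had a probe set, as did 18166 genes in all. All 37 members reached the mean log2 level of 5 that was asked of the 8690 genes tested. Amt, a subunit of the glycine cleavage system, and Glul, glutamine synthetase, were not analysed here.

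Liver came from male Sprague-Dawley rats, an outbred strain, on 8 Affymetrix arrays. The 4 ethanol-fed arrays held liver of rats on a chronic ethanol diet, and the 4 pair-fed arrays liver of rats on a carbohydrate control diet given by pair-feeding. Within each diet, AM21 rats had received an antisense oligonucleotide with locked nucleic acid bases directed against the microRNA miR-21, and the other rats were untreated. AM21 was injected into the peritoneum at 7.5 mg/kg, the first time 72 h ahead of partial hepatectomy (PHx, removal of 70% of the liver) and the second time directly after it, so that at 0 h the AM21 rats had had the first injection only. Each combination of diet and treatment was 1 pool of RNA, of 3 rats with AM21 or of 4 untreated rats, measured 24 h after PHx and at the operation (0 h) in the same animals by their identifiers. No array of a sham operation or of a control oligonucleotide was analysed here, so that PHx and time cannot be told apart, nor AM21 and the injection. The AM21 and the untreated rats also carry separate ranges of identifiers, which cannot be told apart from treatment. Ages were not given in the sources used here.

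Breakdown of amino acids removes the amino group, mostly by transfer to glutamate, and turns the carbon skeleton into products such as pyruvate and citric acid cycle intermediates. The liver turns the released ammonia into urea in a cycle of enzymes split between mitochondria and cytosol, concentrated in the periportal hepatocytes that first meet the portal blood. Several of these genes are known to respond to glucagon and glucocorticoids and to depend on the hepatocyte factors C/EBP and HNF4.

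The strand of miR-21 that AM21 is directed against is shown because it defines the treatment, with its seed, bases 2 to 8, in capitals, from RefSeq (GRCr8, chr10:71902653-71902674, minus strand).
rno-miR-21-5p: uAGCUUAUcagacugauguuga
Promoters of 4 members are shown from the same source, each with 250 bases before and 50 after the annotated start. Otc and Cps1 are neighbouring steps of the urea cycle, of which Otc fell and Cps1 did not pass the test, Kmo was among the strongest falls, and Aass was the stronger of the 2 rises. Capitals mark matches to C/EBP (TTNNGNAA) in Otc, to HNF4 (CAAAGTCCA, here on the opposite strand) in Cps1 and Kmo, and to TGACG and C/EBP in Aass. In order, the windows lie at chrX:15202424-15202723 (minus strand), chr9:76063613-76063912 (plus), chr13:90089271-90089570 (plus) and chr4:52628762-52629061 (minus).
Otc: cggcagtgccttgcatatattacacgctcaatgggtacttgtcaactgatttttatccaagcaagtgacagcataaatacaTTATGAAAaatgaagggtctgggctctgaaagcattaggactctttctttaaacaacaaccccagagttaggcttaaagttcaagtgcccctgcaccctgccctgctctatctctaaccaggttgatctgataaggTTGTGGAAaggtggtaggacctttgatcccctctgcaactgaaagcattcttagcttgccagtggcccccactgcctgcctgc
Cps1: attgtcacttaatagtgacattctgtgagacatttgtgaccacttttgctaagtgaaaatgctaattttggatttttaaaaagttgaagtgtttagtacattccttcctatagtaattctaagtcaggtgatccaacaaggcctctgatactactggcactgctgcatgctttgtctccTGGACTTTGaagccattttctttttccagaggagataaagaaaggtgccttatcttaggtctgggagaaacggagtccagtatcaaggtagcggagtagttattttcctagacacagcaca
Kmo: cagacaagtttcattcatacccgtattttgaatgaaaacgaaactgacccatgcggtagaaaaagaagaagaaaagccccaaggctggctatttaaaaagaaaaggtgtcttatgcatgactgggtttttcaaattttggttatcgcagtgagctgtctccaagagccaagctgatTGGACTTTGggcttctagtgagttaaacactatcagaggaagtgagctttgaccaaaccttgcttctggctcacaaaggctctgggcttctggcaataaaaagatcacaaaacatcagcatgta
Aass: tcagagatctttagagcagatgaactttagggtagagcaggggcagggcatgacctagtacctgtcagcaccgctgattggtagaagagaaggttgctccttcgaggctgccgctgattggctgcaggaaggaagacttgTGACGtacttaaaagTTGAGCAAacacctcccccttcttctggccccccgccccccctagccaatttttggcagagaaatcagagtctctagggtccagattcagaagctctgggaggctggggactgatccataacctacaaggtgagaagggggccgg

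The first comparison asked which steps of amino acid breakdown differed 24 h after PHx. Of the 37 members, 15 fell and 2 rose (limma, adjusted p under 0.05). Over all 8690 genes tested, 12.8% fell and 15.3% rose, and 28.1% passed in either direction. At an unadjusted p under 0.05 there were likewise 17 members, against 40.8% of all genes. The members' median log2 change was -0.20, against 0.01 over all genes tested. Falls were found in each of the 9 routes, while the rises were Aass and Hgd. In whole liver, fewer cells of a type and less RNA per cell cannot be told apart. None of the 6 hepatocyte markers tested passed, and their mean log2 level was 11.45 to 11.51 at 24 h, against 11.46 to 11.56 at 0 h. Their estimates ran from -0.26, for Hnf4a, the dimmest of the 6, to 0.16, with 3 above 0 and 3 below. Markers of other cells did move: both neutrophil markers tested rose (S100a8 by 3.09 and S100a9 by 2.01). The mean log2 level over all 6 listed neutrophil markers was 4.50 to 5.31 at 24 h, against 3.86 to 4.14 at 0 h. Of these, Mpo, Elane, Csf3r and Cxcr2 lay under the level minimum of 5, at 2.78 to 4.43, and were not tested. The arrays of each overlapped between the times. Of 4 endothelial markers Ehd3 and Oit3 fell (both -0.73), with a list mean of 7.19 to 7.62 at 24 h, against 7.53 to 7.98 at 0 h. Of 6 stellate cell and fibroblast markers Lrat (-0.96), Reln (-0.57) and Col3a1 (-0.49) fell and Timp1 rose (2.61), with a list mean of 6.18 to 6.31 at 24 h, against 6.03 to 6.27 at 0 h. The 1 lymphocyte marker tested, Cd4, fell (-0.42), and 0 of 2 cholangiocyte markers passed. The part of these cells in the members' changes was not tested.

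**Figure D1:**
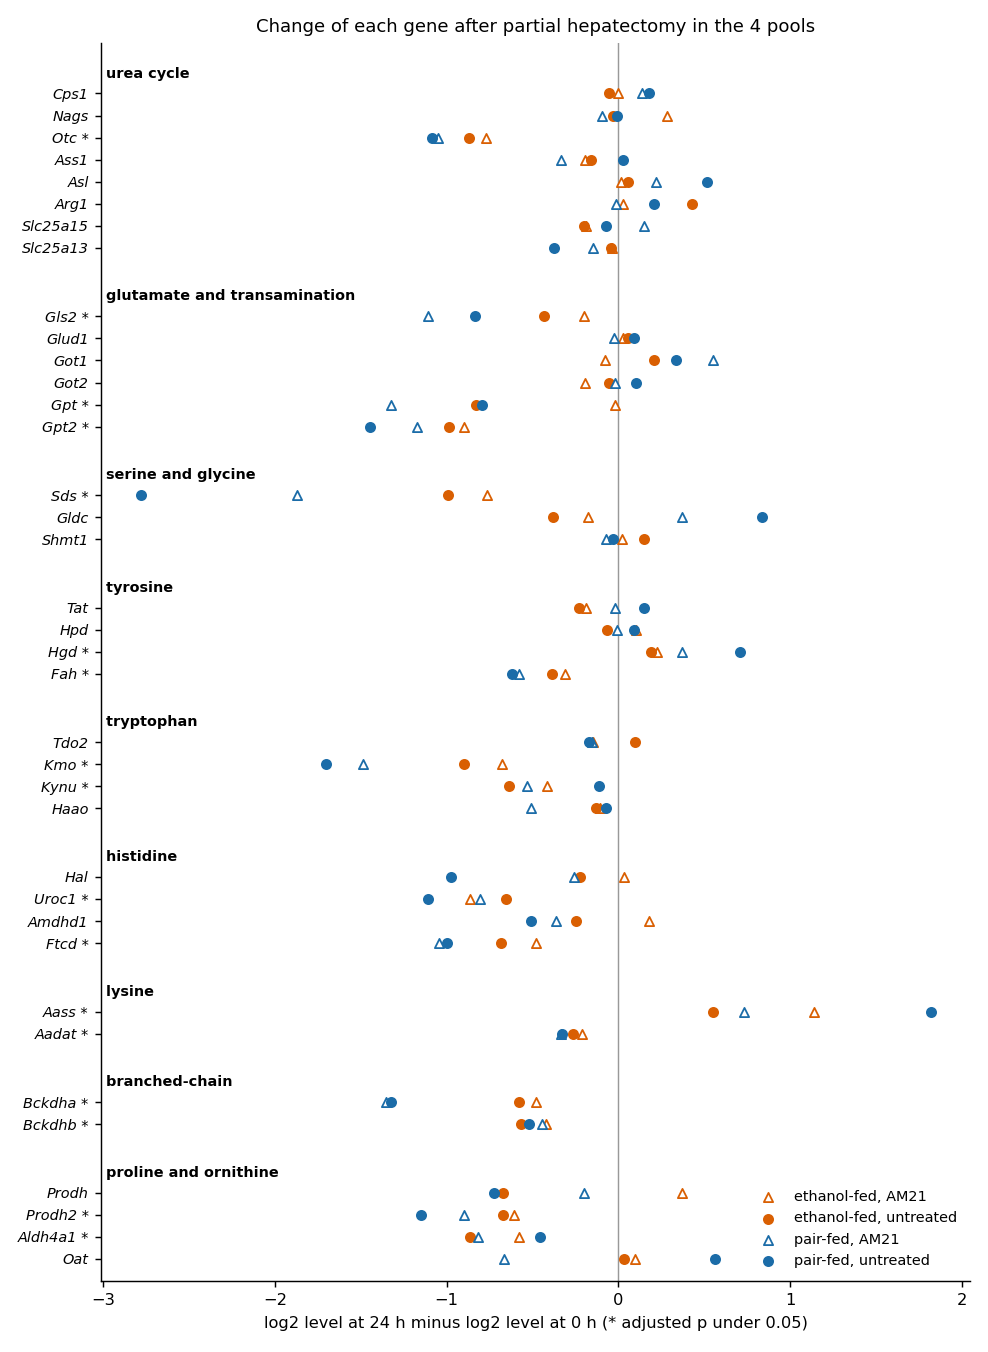
Log2 change of each member from PHx (24 h minus 0 h), with members grouped by route and 1 point for each of the 4 pools. The 15 that fell include Sds and Kmo, with the points of the pair-fed pools farthest below 0, and Aass and Hgd lie above 0 in all 4 pools.

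Changes are log2 differences ± SE over the 4 pools, and in lists of array values the AM21 pool of a diet comes before its untreated pool. In the urea cycle, 1 of 8 genes fell, a share near the 12.8% of all genes tested. Otc, ornithine transcarbamylase, which joins ornithine and carbamoyl phosphate in the mitochondrion, had log2 levels of 9.27 and 9.15 in ethanol-fed and 8.96 and 9.02 in pair-fed liver at 24 h, against 10.04 and 10.01 in ethanol-fed and 10.02 and 10.11 in pair-fed liver at 0 h. All 4 arrays at 24 h lay below all 4 at 0 h, and the fall was -0.94 ± 0.09, or 1.92-fold (limma, adjusted p = 0.00174). Cps1, which makes the carbamoyl phosphate, had 11.78 and 11.77 in ethanol-fed and 11.83 and 11.83 in pair-fed liver at 24 h, against 11.78 and 11.82 in ethanol-fed and 11.69 and 11.65 in pair-fed liver at 0 h. Its groups overlapped, and its difference was 0.07 ± 0.09 (limma, adjusted p = 0.615).

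The other urea cycle genes did not pass either. Estimates were 0.04 ± 0.10 for Nags, which makes the activator of Cps1, and -0.17 ± 0.09 for Ass1, which joins citrulline to aspartate. They were 0.20 ± 0.11 for Asl, which splits argininosuccinate, and 0.16 ± 0.10 for Arg1, which releases urea. The mitochondrial carriers Slc25a15 (ornithine and citrulline) and Slc25a13 (aspartate and glutamate) stood at -0.08 ± 0.09 and -0.15 ± 0.09. Slc25a13 had all 4 arrays at 24 h below all 4 at 0 h without passing the test. The same separation was seen for 13 members and for 13.7% of all genes tested.

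Of the 6 genes of glutamate handling and transamination, 3 fell. Gpt2, the mitochondrial alanine aminotransferase, had log2 levels of 7.59 and 7.53 in ethanol-fed and 7.49 and 7.27 in pair-fed liver at 24 h, against 8.49 and 8.51 in ethanol-fed and 8.66 and 8.71 in pair-fed liver at 0 h. The groups were apart, and the fall was -1.12 ± 0.11, or 2.18-fold (limma, adjusted p = 0.00181). Gpt, its cytosolic counterpart, fell by 0.74 ± 0.20 on the log2 scale (adjusted p = 0.0338), and Gls2, the liver glutaminase, by 0.64 ± 0.16 (adjusted p = 0.0259). Both overlapped between times: the Gpt change was -0.02 in the ethanol-fed AM21 pool and -1.32 in the pair-fed AM21 pool. Glud1, glutamate dehydrogenase, did not pass at 0.04 ± 0.08. Nor did the aspartate aminotransferases, at 0.25 ± 0.12 for the cytosolic Got1 and -0.04 ± 0.09 for the mitochondrial Got2.

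Among the serine and glycine genes, Sds fell and the other 2 did not pass. Sds, serine dehydratase, which yields pyruvate from serine, had log2 levels of 5.58 and 5.74 in ethanol-fed and 5.39 and 4.24 in pair-fed liver at 24 h, against 6.34 and 6.74 in ethanol-fed and 7.26 and 7.02 in pair-fed liver at 0 h. The groups did not overlap, and the array at 4.24 lay under the level minimum of 5. The fall of -1.60 ± 0.32, or 3.04-fold, was the deepest among the 37 members (limma, adjusted p = 0.0128). Without the pair-fed AM21 pool it was -1.51 with an adjusted p of 0.0549. Gldc, the decarboxylase of glycine cleavage, stood at 0.16 ± 0.20, and Shmt1, which exchanges serine and glycine in the cytosol, at 0.02 ± 0.08.

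**Figure D2:**
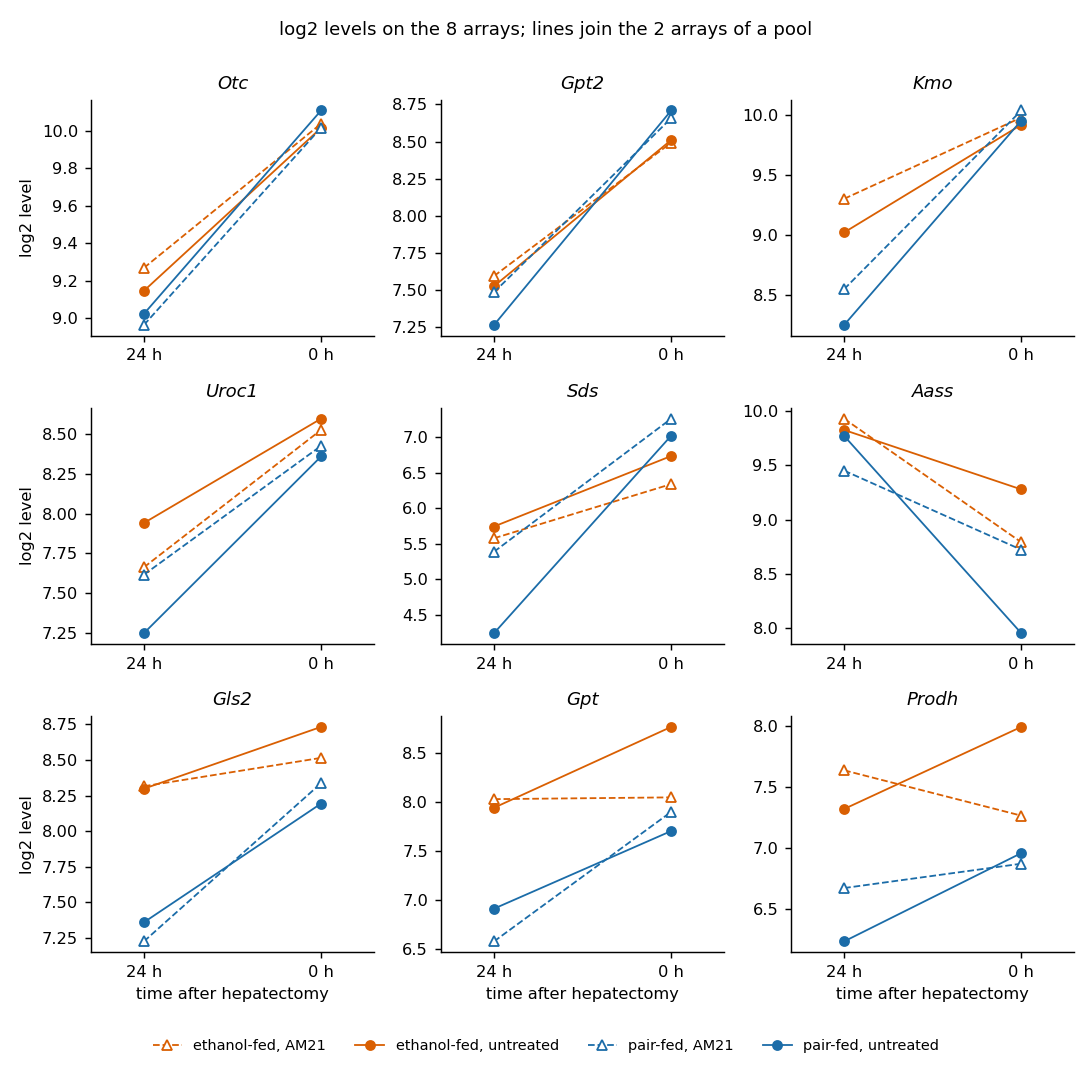
Log2 level on each of the 8 arrays, 24 h beside 0 h, for members on which the results turn, with a line joining the 2 arrays of a pool. Otc, Gpt2, Kmo and Sds have every 24 h array below every 0 h array, and Aass has every 24 h array above.

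The tyrosine route ran in both directions. Fah, which carries out its final cleavage, fell by 0.47 ± 0.09 on the log2 scale (limma, adjusted p = 0.0125), whereas Hgd, the ring-opening homogentisate dioxygenase upstream of it, rose by 0.38 ± 0.11 (adjusted p = 0.0474). Hgd had 10.45 and 10.37 in ethanol-fed and 10.45 and 10.45 in pair-fed liver at 24 h, against 10.22 and 10.18 in ethanol-fed and 10.08 and 9.74 in pair-fed liver at 0 h. Its groups did not overlap, and without the pair-fed untreated pool, which held the lowest array, the rise was 0.26 with an adjusted p of 0.104. The first enzymes, Tat (tyrosine aminotransferase) and Hpd, did not pass, at -0.07 ± 0.10 and 0.03 ± 0.08.

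Of the 4 tryptophan genes, 2 fell. Kmo, the mitochondrial enzyme that hydroxylates kynurenine, had log2 levels of 9.30 and 9.02 in ethanol-fed and 8.55 and 8.25 in pair-fed liver at 24 h, against 9.98 and 9.92 in ethanol-fed and 10.04 and 9.96 in pair-fed liver at 0 h. The 0 h arrays lay close together and above every 24 h array, and the fall was -1.19 ± 0.18, or 2.28-fold (limma, adjusted p = 0.00514). Kynu, which cleaves the product of Kmo, fell by 0.42 ± 0.11 (adjusted p = 0.0307), with a change of -0.11 in the pair-fed untreated pool and -0.42 to -0.64 in the other pools. Tdo2, which opens the ring of tryptophan and begins the route, stood at -0.10 ± 0.09, and Haao, which acts after Kynu, at -0.20 ± 0.10. Kmo and Kynu are also known from macrophages. Of 10 Kupffer cell and macrophage markers, 3 fell (Clec4f, Csf1r and Adgre1) and 1 rose (Marco), with a mean log2 level of 7.35 to 7.98 at 24 h, against 7.50 to 8.01 at 0 h, and their part in these falls was not tested.

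Of the 4 histidine genes, taken in the order of the route, the second and the last fell. Uroc1, urocanase, had 7.66 and 7.94 in ethanol-fed and 7.62 and 7.25 in pair-fed liver at 24 h, against 8.52 and 8.59 in ethanol-fed and 8.42 and 8.36 in pair-fed liver at 0 h. Ftcd, which passes the formimino group to folate, had 9.21 and 9.19 in ethanol-fed and 8.67 and 8.52 in pair-fed liver at 24 h, against 9.69 and 9.87 in ethanol-fed and 9.71 and 9.51 in pair-fed liver at 0 h. Both were lower on every 24 h array, by -0.86 ± 0.10 for Uroc1 (limma, adjusted p = 0.00244) and by -0.80 ± 0.12 for Ftcd (adjusted p = 0.00497). Hal, histidine ammonia-lyase, and Amdhd1, the imidazolonepropionase, did not pass, at -0.36 ± 0.16 and -0.24 ± 0.13.

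The 2 lysine genes moved in opposite directions. Aass, the enzyme of the first steps of the saccharopine route, had log2 levels of 9.93 and 9.83 in ethanol-fed and 9.45 and 9.77 in pair-fed liver at 24 h, against 8.79 and 9.28 in ethanol-fed and 8.72 and 7.95 in pair-fed liver at 0 h. Every 24 h array lay above every 0 h array, as for 2 members and 17.4% of all genes tested, and the rise was 1.06 ± 0.21, or 2.08-fold (limma, adjusted p = 0.0118). The lowest array was the pair-fed untreated one at 0 h, and without that pool the rise was 0.81. Aadat, the aminotransferase that follows in the same route, fell by 0.28 ± 0.08 (adjusted p = 0.0409), with changes of -0.21 to -0.34 in the 4 pools.

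Both branched-chain genes fell. They encode the subunits of the decarboxylase of the branched-chain keto acid dehydrogenase, the committed step for leucine, isoleucine and valine. Bckdha had 6.58 and 6.40 in ethanol-fed and 5.90 and 5.91 in pair-fed liver at 24 h, against 7.06 and 6.98 in ethanol-fed and 7.25 and 7.23 in pair-fed liver at 0 h. Its groups were apart, with a fall of -0.93 ± 0.18 (limma, adjusted p = 0.0109). Bckdhb was also lower on every 24 h array, by -0.49 ± 0.08 (adjusted p = 0.00719), and its pools spanned only -0.57 to -0.42.

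Of the 4 proline and ornithine genes, 2 fell. Prodh2, hydroxyproline dehydrogenase, changed by -0.83 ± 0.11 (limma, adjusted p = 0.00385), and Aldh4a1, which completes the oxidation of both proline and hydroxyproline to amino acids, by -0.68 ± 0.10 (adjusted p = 0.00503). The 24 h arrays of both were below their 0 h arrays. Prodh, proline dehydrogenase, did not pass at -0.31 ± 0.19: it was higher at 24 h in the ethanol-fed AM21 pool, by 0.37, and lower in the other 3. Oat, ornithine aminotransferase, stood at 0.01 ± 0.19, with pool changes of -0.67 in pair-fed AM21 and 0.56 in pair-fed untreated liver.

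The pair-fed untreated array at 0 h was the lowest of the 4 arrays at 0 h for 18 of the 37 members, against 35.0% of all genes tested. Without the pair-fed AM21 pool, 11 members passed in place of 17, the fewest when any 1 pool was left out, and 1628 of all 8690 genes in place of 2443. Otc, Gpt2, Kmo, Uroc1, Ftcd, Bckdha, Prodh2 and Aass passed in all 11 alternatives, while Aadat and Hgd passed in 3 of them and in none that left out a pool. Gls2 and Gpt each did not pass without the ethanol-fed untreated, the pair-fed AM21 or the pair-fed untreated pool, and Kynu did not without the ethanol-fed AM21, the ethanol-fed untreated or the pair-fed AM21 pool.

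Genes of the same and neighbouring pathways outside the 39 were set beside the members. Of 40 further genes tested, 20 fell and 1 rose, with a median log2 change of -0.27. Not all of the 40 are steps of breakdown: Csad, Bhmt and Qprt, named below, are among them. Transporters, synthesis genes and regulators were counted apart. In branched-chain breakdown 8 of 15 fell, including Acadsb (-0.95), Mccc2 (-0.72) and Hibadh (-0.65), which act after the dehydrogenase. In sulfur amino acid metabolism 6 of 10 fell, including Csad (-0.91), of taurine synthesis, Bhmt (-0.86), which remethylates homocysteine, and Ahcy (-0.75), which releases it. Among glycine and one-carbon genes 3 of 8 fell, namely Gnmt (-1.10), Dmgdh (-0.61) and Pipox (-0.60).

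Downstream of Aass, Gcdh (-0.79) and Dhtkd1 (-0.76) were the 2 of 3 further lysine genes that fell. In the tryptophan route Acmsd, which diverts carbon from NAD synthesis towards oxidation, rose by 1.58 ± 0.14 (limma, adjusted p = 0.00162), and Qprt, on the NAD side, fell by 0.31 ± 0.08 (adjusted p = 0.0343). Amino acid transporters were mixed, with 2 of 11 higher, Slc3a2 (0.52) and Slc25a22 (0.39), and 2 lower, Slc6a13 (-0.60) and Slc38a4 (-0.42). Of 4 synthesis genes, Pycr1, which makes proline, rose (0.96). Among 13 regulators of amino acid breakdown 6 fell and 0 rose, including Cebpa (-1.03), which encodes C/EBP alpha, Nr3c1 (-0.82), the glucocorticoid receptor, and Klf15 (-0.74), a fasting-responsive activator of these genes.

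**Figure D3:**
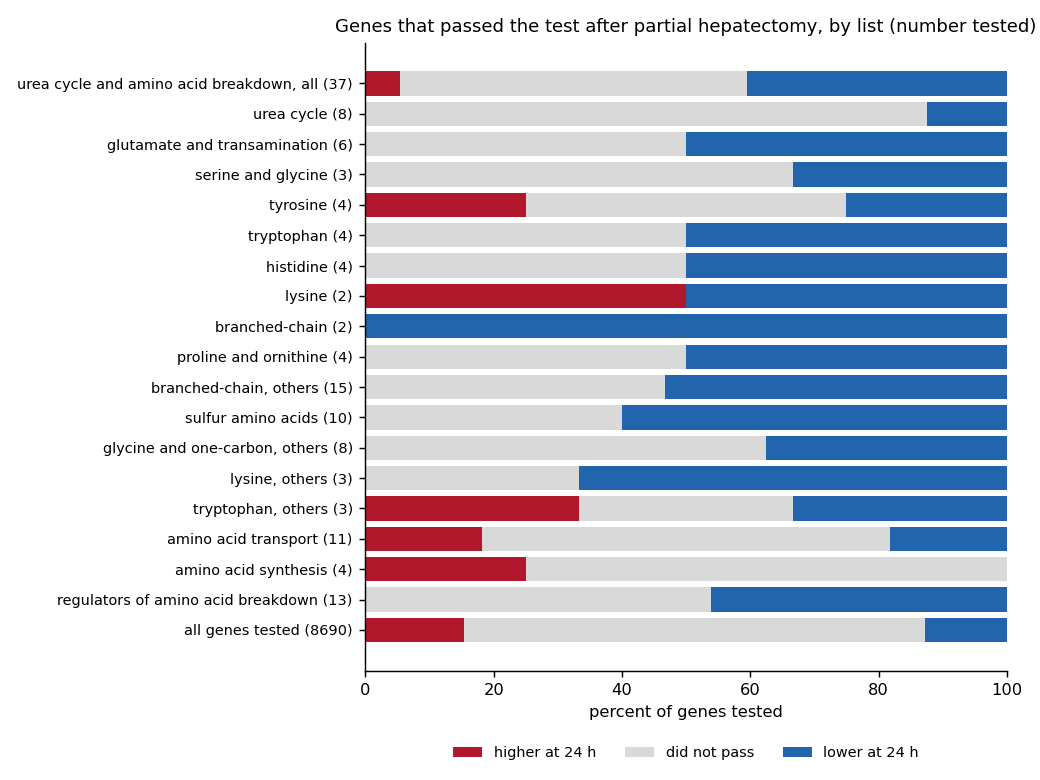
Share of the tested genes of each list that rose or fell with PHx (limma, adjusted p under 0.05), with the number tested in brackets. The 37 genes of urea synthesis and amino acid breakdown had 15 falls and 2 rises, against 12.8% and 15.3% of all genes tested. The urea cycle route had 1 fall among 8 genes, near the share of all genes.

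Promoter motifs were searched as a description of the members, on both strands of the 300-base windows, in the 30 members that had both a probe set and an entry in the RefSeq table. The counts that follow cover these 30. The C/EBP motif was present in 40.9% of all 27457 promoters, in 2 of 12 members that fell (Otc and Kynu), in both that rose and in 3 of 16 that did not pass. The HNF4 motif was present in 0.386% of all promoters, in Kmo, which fell, and in Cps1, which did not pass, at -74 and -71 bases from the start. TGACG, the core of the cyclic AMP response element, was in 21.9% of all promoters, in 2 members that fell, in Aass and in 3 that did not pass. TGTTCT, of the glucocorticoid response element, was in 20.1%, in 2 that fell and 1 that did not pass. The windows of the other motifs, TGTTTAC (FOXA) and TATAAA, matched 0 and 4 members and 3.8% and 14.3% of all promoters. Bckdha, Hal, Amdhd1, Arg1, Sds, Prodh and Gpt were not searched.

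The second comparison asked how chronic ethanol feeding was related to the same genes. The difference, ethanol-fed minus pair-fed, averaged over treatment and time, passed for 0 of the 37 members, against 0.46% of all genes tested, 0.38% higher and 0.0806% lower (limma, adjusted p under 0.05). At an unadjusted p under 0.05, 9 members were higher in ethanol-fed liver and 0 lower. Of all 8690 genes, 15.4% passed this in either direction, and 895 genes were higher. Estimates were above 0 for 30 of the 37, against 4679 of all 8690 genes. The members' median was 0.12, against 0.01 over all genes tested. Ethanol-fed was above pair-fed liver in all 4 matched pairs of arrays for 10 members, against 15% of all genes: Ass1, Gls2, Gpt, Kynu, Haao, Hal, Uroc1, Aass, Bckdhb and Prodh. Glud1 was below in all 4 pairs, as were 8.99% of all genes.

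Gpt had log2 levels of 8.03 and 7.94 at 24 h and 8.05 and 8.77 at 0 h in ethanol-fed liver, against 6.57 and 6.91 at 24 h and 7.90 and 7.70 at 0 h in pair-fed liver. Each ethanol-fed array lay above each pair-fed one, and the difference was 0.92 ± 0.19 (limma, adjusted p = 0.08). Prodh had 7.63 and 7.32 at 24 h and 7.26 and 7.99 at 0 h in ethanol-fed liver, against 6.67 and 6.23 at 24 h and 6.87 and 6.95 at 0 h in pair-fed liver. It too was separate between the diets, with a difference of 0.87 ± 0.19 (adjusted p = 0.0926). Such separation was found for these 2 members and for 3.48% of all genes. The opposite separation was found for 0 members and 1.39% of all genes.

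Gls2 had 8.31 and 8.30 at 24 h and 8.51 and 8.73 at 0 h in ethanol-fed liver, against 7.23 and 7.36 at 24 h and 8.34 and 8.19 at 0 h in pair-fed liver. The diets overlapped, with the pair-fed arrays at 24 h well below the rest, and the difference was 0.69 ± 0.15 (limma, adjusted p = 0.0922). Averaged within each pool as a replicate block, which leaves 4 values and 1 residual degree of freedom, these 3 genes passed, with adjusted p of 0.0271 for Gpt, 0.0401 for Prodh and 0.0403 for Gls2. Over all 8690 genes, 102 passed in that fit and 40 in the additive one. Without the ethanol-fed AM21 array at 0 h, Gpt (1.14, adjusted p = 0.0432) and Prodh (1.09, adjusted p = 0.043) passed, with 18 of all genes.

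Among the remaining 6 with an unadjusted p under 0.05, Bckdhb differed by 0.32 ± 0.08 (limma, adjusted p = 0.118), with pairs of 0.28 to 0.37. Kynu (0.36), Haao (0.28), Amdhd1 (0.45), Ftcd (0.39) and Aass (0.48) had adjusted p from 0.179 to 0.317. The Aass pairs were 0.48 and 0.05 at 24 h and 0.07 and 1.33 at 0 h. The largest was set against the pair-fed untreated array at 0 h, at 7.95, and leaving out 1 array gave 0.24 at the lowest. Ftcd (-0.02) and Amdhd1 (-0.08) were below 0 in the AM21 pair at 0 h and above 0 in the other pairs. Of the 40 further genes of the same and neighbouring pathways, 35 had estimates above 0, against 4679 of all 8690 genes. Their median was 0.18, and 0 passed. Kupffer cell and macrophage markers stood higher in ethanol-fed liver with all 10 estimates, Marco (0.77) and Cd5l (0.71) passing, and their mean log2 level was 7.87 to 8.01 in ethanol-fed and 7.35 to 7.62 in pair-fed liver. Their part in the diet differences was not tested. Hepatocyte markers averaged 11.48 to 11.52 in ethanol-fed and 11.45 to 11.56 in pair-fed liver, and 0 of 6 passed.

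**Figure D4:**
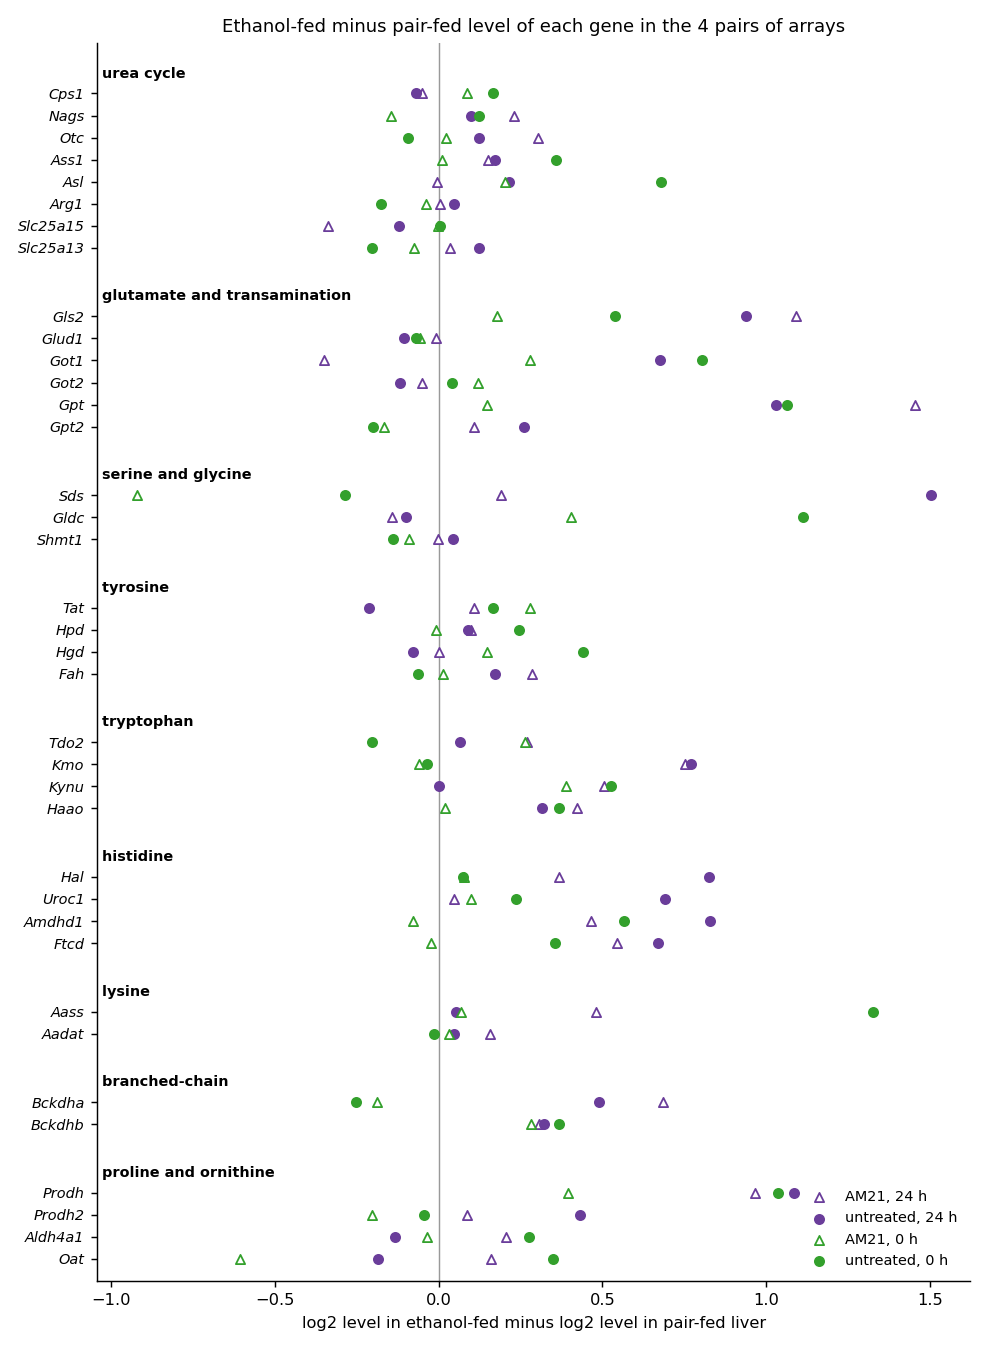
Log2 difference between ethanol-fed and pair-fed liver for each member, with 1 point for each of the 4 matched pairs of arrays. Gpt (0.92), Prodh (0.87) and Gls2 (0.69) have the largest mean differences, with all 4 points above 0. Means are above 0 for 30 of 37 members, against 4679 of all 8690 genes tested.

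The next question was whether the diet altered the response to PHx, tested as the difference between the ethanol-fed and the pair-fed change. It passed for 1 member, Sds, against 0.529% of all genes tested in either direction and 0.069% in that of Sds. Sds changed by -0.76 and -0.99 in the ethanol-fed pools, against -1.87 and -2.78 in the pair-fed pools. Both ethanol-fed changes were the smaller, and the difference of changes was 1.45 ± 0.23 (limma, adjusted p = 0.0472). The call was lost with the levels under 5 raised to 5, an alternative chosen after the data were seen (1.07, adjusted p = 0.084), without the level filter (adjusted p = 0.199) and without the replicate block (adjusted p = 0.345). The 6 alternatives gave adjusted p from 0.0002 to 0.345.

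Among the rest, Gls2, Gldc, Kmo, Hal and Bckdha had an unadjusted p under 0.05, making 6 members with Sds, against 10.9% of all genes. Kmo changed by -0.68 and -0.90 in ethanol-fed pools, against -1.49 and -1.70 in pair-fed pools, a difference of 0.81 ± 0.20 (limma, adjusted p = 0.151). Bckdha changed by -0.48 and -0.58 in ethanol-fed pools, against -1.35 and -1.32 in pair-fed pools, a difference of 0.81 ± 0.20 (adjusted p = 0.156). The pair-fed falls were the larger for both.

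Gldc went the other way, with -0.18 and -0.38 in ethanol-fed pools, against 0.37 and 0.83 in pair-fed pools, a difference of -0.88 ± 0.23 (limma, adjusted p = 0.177). At 24 h its log2 levels were 7.39 and 7.38 in ethanol-fed and 7.53 and 7.48 in pair-fed liver. At 0 h they were 7.57 and 7.76, against 7.16 and 6.64, so that the diets were farther apart before PHx. Differences for Gls2 and Hal were 0.66 ± 0.22 and 0.52 ± 0.21. Both ethanol-fed changes lay above both pair-fed changes for 15 members, against 20.3% of all genes, and below them for 8, against 19.7%. Of 6 cell cycle genes, 5 passed with smaller rises in ethanol-fed liver, with a mean log2 level of 8.61 to 9.73 at 24 h, against 4.65 to 6.42 at 0 h. Ccnb1 had log2 levels of 5.26 and 5.70 in ethanol-fed and 3.73 and 4.04 in pair-fed liver at 0 h. At 24 h it had 7.98 and 7.69, against 9.27 and 8.10. Mki67, Top2a, Cdk1 and Rrm2 too were higher in ethanol-fed liver at 0 h and lower at 24 h. Pair-fed arrays at 0 h lay under the level minimum of 5 for Ccnb1, Cdk1, Mki67 and, with AM21, Top2a. The part of the cell cycle genes in the members' differences was not tested.

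**Figure D5:**
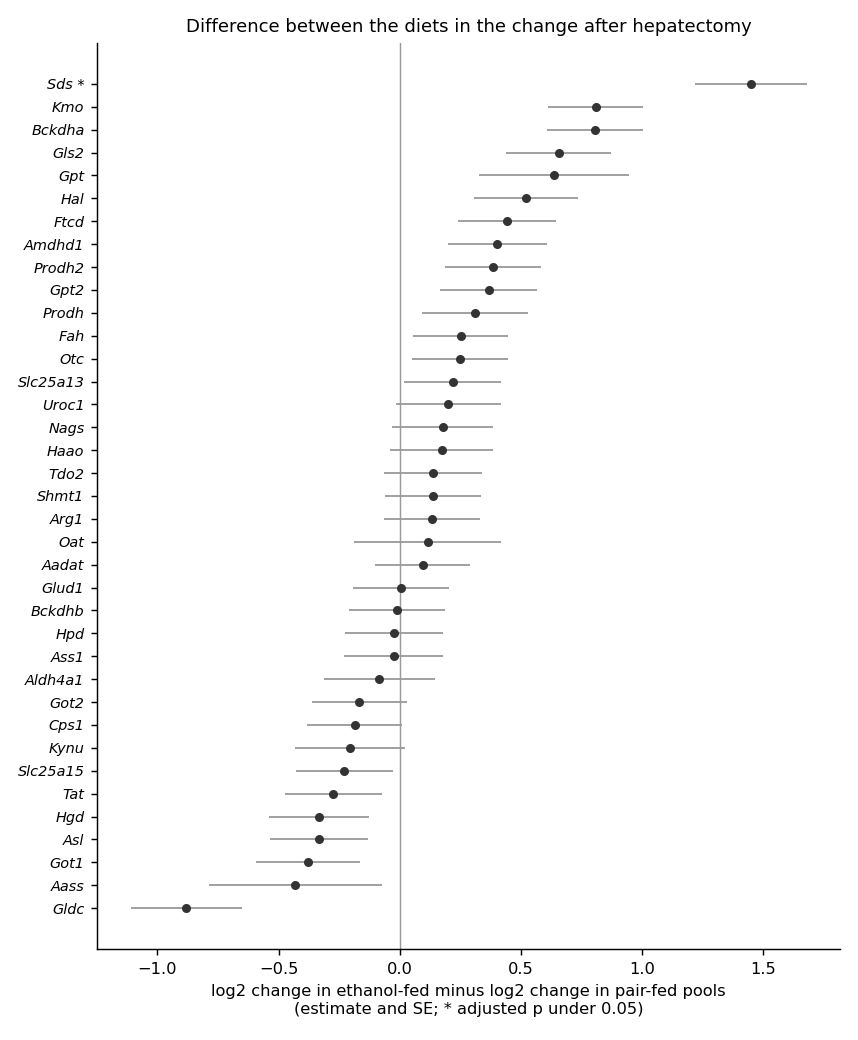
Difference between the diets in the log2 change with PHx (ethanol-fed minus pair-fed pools), 1 point per member with its SE, sorted by size. Sds (1.45, marked as past the threshold), Kmo (0.81) and Bckdha (0.81) lie farthest above 0, and Gldc (-0.88) farthest below.

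The last comparison was AM21 against untreated liver, averaged over diet and time. It passed for 0 of the 37 members and 0% of all genes tested (limma, adjusted p under 0.05), and at an unadjusted p under 0.05 there were 0 members, against 6.19% of all genes. The members' median was 0.00, against -0.03 over all genes. Oat had the largest estimate, 0.37 ± 0.18 (adjusted p = 0.854): AM21 liver had 9.07 (24 h) and 8.97 (0 h) with ethanol and 8.91 (24 h) and 9.58 (0 h) with pair-feeding, against 8.82, 8.79, 9.01 and 8.44 on the matching untreated arrays. The groups overlapped, and the pair-fed arrays at 0 h were the farthest apart. AM21 was above untreated liver in all 4 pairs for Slc25a15, Hgd, Kmo and Aadat, and 4.4% of all genes, and below in all 4 for Got2 and Bckdhb, and 11.2% of all genes. The response to PHx differed with AM21 for 0 members and 0% of all genes, with an unadjusted p under 0.05 for Prodh (0.78 ± 0.22) and Sds (0.57 ± 0.23), against 6.95% of all genes.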

How the data were processed

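Per the submitters' processing notes, the authors used RMA, as run in Affymetrix Expression Console, to obtain the deposited log2 values, 1 per probe set and array. The software version is not given in the sources used here. RMA brings the arrays to one distribution, which hides a change common to most genes. Array medians were 4.11 to 4.23. Arrays give no read depth, and with so few pools the estimates are imprecise. Each combination of diet and treatment had 1 pool, so that no p-value rests on replicate pools. The PHx p-values measure the spread of the change among 4 pools that differ in diet and treatment. That spread holds any difference of response with diet or AM21, and may also be technical. The diet and AM21 p-values rest on the residuals of 8 arrays, and those of the interactions on 1 residual degree of freedom.

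For a gene with several probe sets the brightest was used, which concerned 0 members. Genes needed a mean log2 level of 5 to enter the tests. These used lmFit and eBayes of limma 3.58.1 (R 4.3.3), and p-values were adjusted over 8690 genes by Benjamini-Hochberg, at a threshold of 0.05. The PHx fit held each pool as a fixed block, since the animal identifiers pair the arrays, leaving 3 residual degrees of freedom. Diet and AM21 came from 1 additive fit in which pools were a random block. Its consensus correlation was -0.371 and was set to 0, so that these p-values treat 8 arrays of 4 pools as independent. Interactions had the pool as a fixed block and 1 residual degree of freedom.

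The 39 members were all named, and of the other lists up to 3 genes per comparison with the largest change past the threshold. Slc25a22, the cell type markers and the zonation genes were named after their values were seen. Members and lists were chosen with earlier results of these data known. Fits were run on simulated arrays with planted changes and independent noise, without a pool effect. Only the mean estimates were checked there, so that the run does not bear on the p-values. Alternatives covered the level filter, the probe sets, centring, the variance prior, the block, single times and left-out arrays. All 37 members were found by gene identifier in the GRCr8 RefSeq table, with 0 symbols changed. The sequences and their coordinates are RefSeq's in GRCr8; the array's own build was not used. Gls2 has several promoter entries, of which the first was taken.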

Additional observations from a re-analysis of the deposited data

Results flagged for a closer look

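In 37 members, each with 4 pools, a pool far from the others was looked for in the change with PHx. Chance gives such a pool in about 1 in 20 groups, which is about the rate found here. It was found for Tdo2, whose change was 0.094 in the ethanol-fed untreated pool and -0.17 to -0.15 in the others. For Haao the change was -0.51 in the pair-fed AM21 pool and -0.13 to -0.07 in the others. Sds had a change with PHx that differed between ethanol-fed and pair-fed liver by 1.45 on the log2 scale, by a test of the difference itself. The array that lay lowest for Sds was that of pair-fed untreated liver at 24 h, at 4.24.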

How the results depend on the processing

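The 17 members that passed with PHx became 11 to 14 when 1 pool was left out, and 11 with the 2 pair-fed pools alone, an alternative chosen after the data were seen. Over all 8690 genes, 2443 became 1466 to 1705 and 1000. With diet 0 members passed, but 3 did so with pool means as a replicate block and 3 with all 2-way interactions, and 0 to 2 when 1 array was left out. Over all genes, 40 became 102, 285 and 0 to 18. The 1 member whose PHx response differed with diet became 0 without a level filter, 0 without the replicate block, 0 with levels under 5 raised to 5 (chosen after the data were seen), and 2 with a trend and robust prior, which added Kmo (adjusted p = 0.00989). Over all genes, 46 became 0 of 18166, 2, 22 and 179. For AM21 and its interaction with PHx the count of members was 0 under every alternative run, while over all genes it reached 8 (AM21, all 2-way interactions) and 59 (interaction, each array centred). The estimates that changed sign belonged to members that had not passed with PHx. Leaving out 1 pool gave -0.061 to 0.34 for Gldc, -0.090 to 0.0087 for Got2, -0.042 to 0.083 for Nags, -0.18 to 0.23 for Oat and -0.028 to 0.045 for Shmt1. The 2 ethanol-fed pools alone gave -0.028 for Cps1 and -0.28 for Gldc. The 2 pair-fed pools alone gave 0.041 for Got2, -0.049 for Nags, -0.052 for Oat, -0.052 for Shmt1, 0.037 for Slc25a15 and 0.066 for Tat. Without the replicate block, 17 members passed with PHx as well. Sds lay at 4.24 on 1 array, under the level minimum of 5. The cause of these shifts was not tested.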

Other observations

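Zonation genes give a further view of the same tissue, as a description. Of 9 periportal genes tested, 4 fell with PHx and 0 rose, against 12.8% and 15.3% of all genes tested. The median log2 change of the 9 was -0.36. Besides Sds and Gls2, the genes that fell were Pck1 (-0.48), of glucose synthesis, and Aldh1b1 (-0.69), a mitochondrial aldehyde dehydrogenase (limma, adjusted p of 0.0125 and 0.00921). The list shares Hal, Sds, Gls2, Cps1, Ass1 and Arg1 with the members. Of 7 pericentral genes, 3 fell and 1 rose, with a median of -0.07. The falls were Rhbg (-0.43), an ammonia transporter, Cyp2e1 (-0.39), which oxidises ethanol, and Gulo (-0.41), of ascorbate synthesis, and the rise was Axin2 (1.00), a Wnt target. The list shares Oat with the members.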
